A study of Rattus norvegicus with 3 samples.

Results

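The genes described here are CXC chemokines that attract neutrophils, some of their relatives, and their receptors: Cxcl1, Cxcl2, Cxcl3, Cxcl6, Cxcl16, Cxcl12, Cxcr2 and Cxcr4. They were chosen by name, and their probes were taken through the platform annotation of the array, with older names accepted. Of the 8 listed genes 7 had a named probe, on 10 of 20932 gene probes, out of 15925 genes named on the array. Cxcl16 had none and is not analysed here. Cxcl6 carried the older symbol Cxcl5 on the array and was matched through its RefSeq accession.

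The cells were NR8383, an established line of rat alveolar macrophages, the phagocytes of the lung surface. They were measured after 24 h with CNT-2 or CNT-1, both impurity-free single-wall carbon nanotubes given at 0.1 mg/mL in 1 mg/mL bovine serum albumin, or in a control. The labels call that control both untreated and an albumin solvent control. The labels do not say how the nanotubes differ. Each group had 1 value for every probe, so differences have no replicate check, no test between groups was possible, and "higher" and "lower" describe these columns only. In RNA from whole cultures, fewer cells with a transcript and less of it per cell cannot be told apart.

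CXC chemokines are small secreted proteins that guide leukocytes through receptors coupled to G proteins. Those with a glutamate-leucine-arginine motif ahead of the first cysteines, among them Cxcl1, Cxcl2, Cxcl3 and Cxcl6, act on Cxcr2 and draw neutrophils out of the blood. Macrophages of the lung are an early source of them after particles, bacteria or injury. Cxcl12, which acts on Cxcr4, retains leukocytes in tissues such as the bone marrow, and Cxcl16 binds Cxcr6.

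The values were differences on a log scale, presumed log2, from a baseline per probe that is none of the 3 columns. They therefore hold no expression level, and neither levels of different genes nor the identity of the cells can be read from them. The negative-control probe had 0.05 in CNT-2, -0.11 in CNT-1 and 0.16 in the control. A probe within 0.02 of it in a column is called near the negative control there, which held for 4.00% of gene probes in CNT-2, 12.8% in CNT-1 and 14.5% in the control. Of 1675 probes near it in both CNT-1 and the control, the median CNT-1 minus control difference was -0.27. Because each probe has its own baseline, such a value shows a shift equal to that of the negative control and does not show that the signal was at background. The 10 spike-in probes, for RNA added during labelling, were 0.23 ± 0.10 higher in CNT-2 than in the control and at -0.05 ± 0.07 in CNT-1 minus control (SD over probes).

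Upstream sequence is shown for the ligands Cxcl1, Cxcl2 and Cxcl6 because these neighbours in 1 gene cluster share a motif but differed in their values, as described below. Each line holds the 250 bases before the RefSeq gene start in assembly GRCr8, 5′ to 3′ on the strand of the gene. Capitals mark matches, on either strand, to the NF-kappaB consensus or to the C/EBP motif TTGCNNAA.
Cxcl1 (chr14:17479322-17479571, minus strand): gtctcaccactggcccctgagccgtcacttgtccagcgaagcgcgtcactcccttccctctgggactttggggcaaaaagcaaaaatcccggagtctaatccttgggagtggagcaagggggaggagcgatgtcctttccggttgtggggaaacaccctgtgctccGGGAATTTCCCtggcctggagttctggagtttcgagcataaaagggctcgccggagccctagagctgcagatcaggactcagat
Cxcl2 (chr14:17467256-17467505, minus strand): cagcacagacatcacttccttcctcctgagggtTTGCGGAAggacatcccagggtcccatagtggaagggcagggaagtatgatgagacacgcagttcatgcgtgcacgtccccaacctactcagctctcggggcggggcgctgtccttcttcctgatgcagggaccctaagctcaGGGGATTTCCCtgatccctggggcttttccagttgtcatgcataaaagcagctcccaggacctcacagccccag
Cxcl6 (chr14:17596418-17596667, minus strand): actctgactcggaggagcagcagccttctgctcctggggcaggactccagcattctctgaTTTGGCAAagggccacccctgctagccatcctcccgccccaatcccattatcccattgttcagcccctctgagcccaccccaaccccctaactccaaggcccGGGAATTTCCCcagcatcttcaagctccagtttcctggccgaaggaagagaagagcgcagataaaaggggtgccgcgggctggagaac

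In Cxcl1 the NF-kappaB match GGGAATTTCC began 84 bases before the gene start. Cxcl6 had the same letters, beginning at base 88, and Cxcl2 had GGGGATTTCC, beginning at base 74. Each of these matches overlapped a further one shifted by 1 base. Of 33469 windows of this length in the RefSeq table, 3.54% held the NF-kappaB consensus and 9.22% the C/EBP motif. The windows of Cxcl16, Cxcl12, Cxcr2 and Cxcr4 held neither of these, and the AP-1 motif TGANTCA, present in 6.34% of windows, was in none of the 7 windows. No window of Cxcl3 is shown. A match describes letters and not a bound site.

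The first question was how cells given CNT-2 differed from the control. Of the 7 members 3 were at least 1 log2 unit higher, namely Cxcl2, Cxcl1 and Cxcl3, against 10.1% of all named genes. Cxcr2 was the 1 member at least 1 log2 unit lower, against 6.56% of all named genes. Cxcl6, Cxcl12 and Cxcr4 lay within 1 unit of the control. The median of the members was 0.26, beside 0.04 for all named genes. With 75th percentile centring the medians were -0.18 and -0.40, while the same counts of 3 and 1 were obtained.

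Cxcl2, known in the rat as MIP-2 and a fast-responding neutrophil attractant of macrophages, had 6.27 in CNT-2, 0.61 in CNT-1 and 0.001 in the control. Its CNT-2 minus control difference of 6.27, on 1 probe, was exceeded by 15 of 15925 genes. After quantile normalization it was 3.23. That setting forces the 3 columns onto 1 distribution, which narrows the wide CNT-2 column and widens the narrow control column by construction. Read as log2, 6.27 is a 77.0-fold difference, a size that holds for the deposited scaling only. The CNT-2 column stood far above the other columns, and CNT-1 lay slightly above the control.

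Cxcl1, or CINC-1, the rat counterpart of the human GRO chemokines, had 4.63 in CNT-2, 1.20 in CNT-1 and 0.15 in the control. Its difference in CNT-2 was 4.48, which 60 genes exceeded, and 2.07 after quantile normalization. The control value was near that of the negative control, and whether the signal there was at background was not tested. Of the 3036 gene probes near the negative control in the control column, 6.42% were at least 1 unit higher in CNT-2, and 15 of them exceeded Cxcl1.

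Cxcl3, or CINC-2, acts on the same receptor and had 2 probes that disagreed. The first had 0.52 in CNT-2, -0.11 in CNT-1 and 0.16 in the control, the last pair near the negative control. The other had 3.87 in CNT-2, 0.56 in CNT-1 and 0.76 in the control. The CNT-2 minus control differences were 0.36 and 3.11, with a mean of 1.74 ± 1.94 (SD over 2 probes). Of 3909 genes with 2 or more probes, 29 had a larger probe SD in this comparison. The higher call for Cxcl3 thus rests on 1 of its probes. Its mean was 0.03 after quantile normalization, which changes the spread of the columns by construction. Cxcl1, Cxcl2 and Cxcl3 are close relatives in sequence, and whether their probes tell them apart was not tested.

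Cxcl6, called LIX in rodents and likewise a Cxcr2 ligand, had 0.44 in CNT-2, -0.41 in CNT-1 and 0.44 in the control. The CNT-2 minus control difference was -0.003 in the deposited scaling. It was -0.44 with 75th percentile centring, -0.96 after quantile normalization and 0.44 as the CNT-2 value alone. It stayed within 1 unit under these. Cxcl6 lies in the same cluster and has the same NF-kappaB letters upstream as Cxcl1, and their bearing on the values was not tested.

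Cxcl12, the ligand of Cxcr4, had 2 probes, designed on different transcript accessions, that moved in opposite directions. The first had -0.12 in CNT-2, -0.09 in CNT-1 and 0.53 in the control, its CNT-1 reading near the negative control. The other had 0.71 in CNT-2, 0.58 in CNT-1 and 0.16 in the control, its control reading near the negative control. The CNT-2 minus control differences were -0.65 and 0.55, with a mean of -0.05 ± 0.85 (SD over 2 probes), so the gene has no settled direction.

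Cxcr2, the receptor through which the neutrophil-attracting ligands act, had -2.84 in CNT-2, 0.05 in CNT-1 and 0.02 in the control. Its difference of -2.86 in CNT-2 was on 1 probe, and 35 genes had a lower one. After quantile normalization it was -1.68. The CNT-2 column alone stood apart, and the receptor was low in the column where Cxcl1 and Cxcl2 were high. Cxcr4, the receptor of Cxcl12, had 1 probe with -0.12 in CNT-2, -0.09 in CNT-1 and 0.16 in the control, the last near the negative control. Its other probe had 0.89 in CNT-2, -0.40 in CNT-1 and 0.09 in the control. The mean CNT-2 minus control difference of Cxcr4 was 0.26 ± 0.76 (SD over 2 probes), and it turned to -0.18 with 75th percentile centring and -0.19 after quantile normalization.

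**Figure D1:**
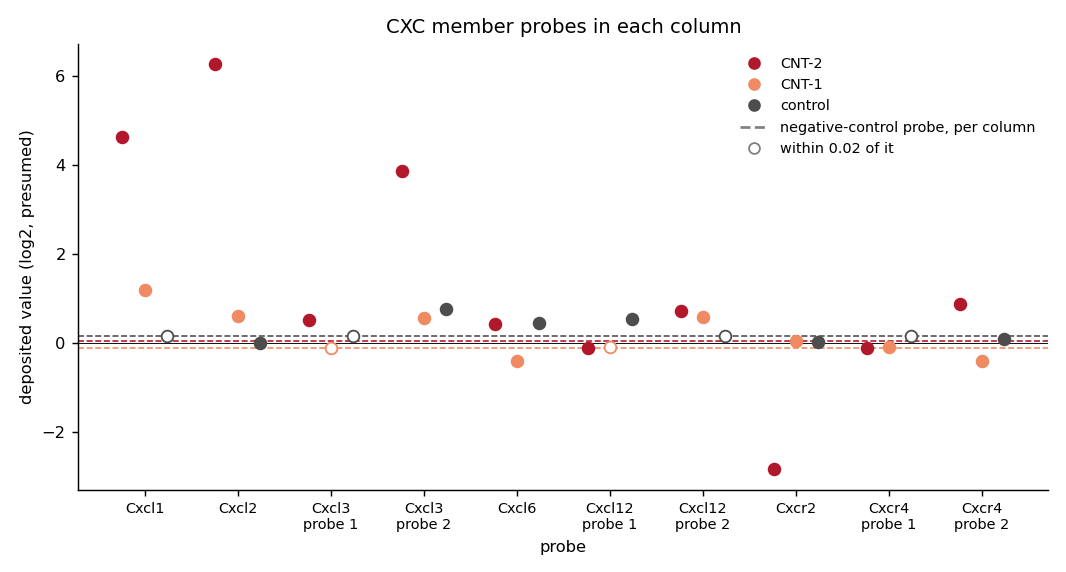
Deposited value (vertical axis, presumed log2) of each member probe (horizontal axis) in CNT-2, CNT-1 and the control, with dashed lines at the negative-control probe of each column and open points within 0.02 of it. Cxcl1, Cxcl2 and 1 probe of Cxcl3 lie at 4.63, 6.27 and 3.87 in CNT-2, and Cxcr2 at -2.84.

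The next question was how cells given CNT-1 differed from the control. Of the 7 members 1 was at least 1 log2 unit higher, Cxcl1 at 1.05, against 1.16% of all named genes. None was at least 1 unit lower, against 2.15% of all named genes. The median of the members was -0.10, beside -0.04 for all named genes. The control column is the same as in the comparison with CNT-2, so the comparisons are not independent.

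Cxcl1 lay just past the threshold in CNT-1, and 160 genes had a larger difference. With 75th percentile centring it was 0.995 and just short of 1, and its control reading was near the negative control. Among the 3036 probes with such a control reading, 44 had a larger CNT-1 minus control difference and the median was -0.26. Cxcl2 followed at 0.61 and lay between 0.56 and 0.88 under the alternative settings.

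The remaining members gave small or negative values in CNT-1. Cxcl6 was the lowest at -0.85, and after quantile normalization at -1.58. Cxcr4 was at -0.37 ± 0.17 and Cxcl3 at -0.24 ± 0.04 (SD over 2 probes each). The first probe of Cxcl3, at -0.27, and the first of Cxcr4, at -0.25, had about the CNT-1 minus control difference of the negative-control probe, -0.27. With each column centred on that probe Cxcl3 was at 0.03 and Cxcr4 at -0.10. Cxcl12 was at -0.10 ± 0.74 (SD over 2 probes), again with opposite signs of -0.62 and 0.42. Cxcr2 was at 0.03, and at -0.02 with 75th percentile centring.

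**Figure D2:**
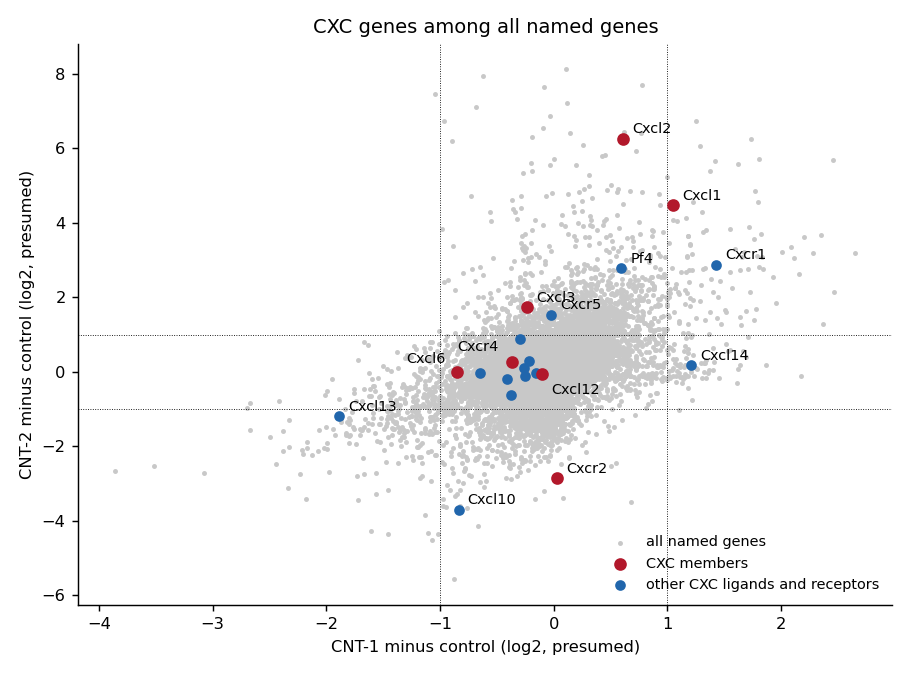
Difference from the control in CNT-2 (vertical axis) against that in CNT-1 (horizontal axis), presumed log2, for all 15925 named genes (grey), the 7 members (red) and other CXC ligands and receptors (blue), with dotted lines at 1 unit. Cxcl2 lies at 6.27 in CNT-2 and 0.61 in CNT-1, and Cxcr2 at -2.86 in CNT-2 and 0.03 in CNT-1.

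Set directly against CNT-1, CNT-2 gave the same 4 members past 1 log2 unit. The 3 higher ones compare with 9.32% of all named genes and the 1 lower one with 4.65%. Cxcl2 was 5.65 higher, Cxcl1 3.43 and Cxcl3 1.97 ± 1.90 (SD over 2 probes), and Cxcr2 was at -2.89. Cxcl6 was at 0.85, Cxcr4 at 0.63 ± 0.93 and Cxcl12 at 0.05 ± 0.11 (SD over 2 probes each). Without probes near the negative control in the control column the 3 higher members were Cxcl2, Cxcl3 at 3.32 and Cxcr4 at 1.29, since Cxcl1 had no probe left. The median of the members was 0.85, beside 0.15 for all named genes. After quantile normalization Cxcl2 alone was at least 1 unit higher in this comparison, at 2.37, while Cxcl1 was at 0.67 and Cxcl3 at 0.81.

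The other CXC genes show how uneven the family was. In the RefSeq order of chromosome 14 the members Cxcl2, Cxcl1, Cxcl3 and Cxcl6 lie in 1 cluster with Pf4 and Ppbp, the platelet chemokines, between the last pair. Pf4 was at 2.79 in CNT-2 and 0.60 in CNT-1 relative to the control. Ppbp was at -0.04 in CNT-2 and -0.65 in CNT-1. Of these 6 CXC genes 4 were thus at least 1 unit higher in CNT-2, against 10.1% of all named genes. Ppbp and Cxcl6 were not, and the call for Cxcl3 rests on 1 of its 2 probes.

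A separate group on chromosome 14 holds the interferon-induced ligands of Cxcr3, which attract T cells. Cxcl10 was at -3.70 in CNT-2 and -0.84 in CNT-1, Cxcl9 at -0.61 and -0.38, and Cxcl11 at -0.19 and -0.41. Cxcl10 was thus on the lower side in the column where Cxcl1 and Cxcl2 were on the higher side. Cxcl13, the B cell attractant, was at -1.18 in CNT-2 and -1.89 in CNT-1. Cxcl14 was at 0.19 in CNT-2 and 1.21 in CNT-1, and Cxcl17 at 0.89 and -0.29. Of these 8 further ligands 1 was at least 1 unit higher and 2 lower in CNT-2, against 10.1% and 6.56% of all named genes. In CNT-1 1 was higher and 1 lower, against 1.16% and 2.15%. Their medians were -0.12 in CNT-2 and -0.39 in CNT-1.

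Among further receptors the values of Cxcr1 and Cxcr2, which neighbour each other on chromosome 9, differed in sign in CNT-2. Cxcr1, a receptor for some of the same ligands, had 2.88 in CNT-2, 1.44 in CNT-1 and 0.007 in the control. Its differences from the control were 2.87 in CNT-2 and 1.43 in CNT-1. Cxcr5, the receptor of Cxcl13, was at 1.53 in CNT-2 and -0.02 in CNT-1. Cxcr3, Cxcr6 and the scavenging receptor Ackr3 were near the negative control in the control column, and their differences in CNT-2 were 0.12, 0.29 and -0.10. In CNT-1 these were at -0.26, -0.22 and -0.25, about the difference of the negative-control probe. Ackr4 was at -0.03 in CNT-2 and -0.16 in CNT-1, and Ackr1 had no named probe.

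**Figure D3:**
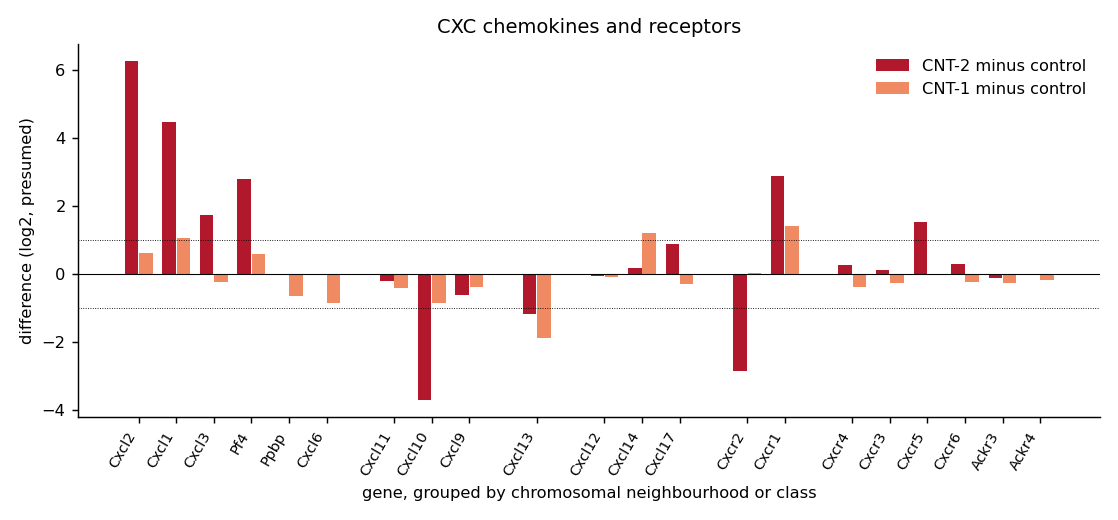
Difference from the control (vertical axis, presumed log2) of each CXC ligand and receptor (horizontal axis) in CNT-2 and CNT-1, grouped by neighbourhood on the chromosome or by class, with dotted lines at 1 unit. In the first group Cxcl2, Cxcl1, Cxcl3 and Pf4 reach 6.27, 4.48, 1.74 and 2.79 in CNT-2, and Ppbp and Cxcl6 stay at -0.04 and -0.003.

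Genes of pathways that lead to chemokine transcription, inhibitors included, were described next, from pathway lists compiled with earlier results of these data known. Beside the counts in CNT-1 below stand 1.16% higher and 2.15% lower among all named genes. In CNT-2 5 of 10 NF-kappaB subunits and inhibitors were at least 1 unit higher and none lower, and their median was 1.00, against 10.1% and 6.56% of all named genes and a median of 0.04. The count was 2 and the median 0.47 after quantile normalization, and 3 and 0.56 with 75th percentile centring. Nfkbib and Nfkbia, which hold NF-kappaB in the cytoplasm and are in part its own targets, were at 2.36 and 1.99. The subunit Rel was at 1.72, the inhibitor Nfkbie at 1.29 and the cofactor Bcl3 at 1.01, the last named after its value was seen. In CNT-1 none of the 10 was past 1 unit, or 1 after quantile normalization, with a median of 0.18.

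Of 25 upstream cytokines, sensors and adaptors 7 were higher and 1 lower in CNT-2, against 10.1% and 6.56% of all named genes. Their median was 0.45, which 75th percentile centring brought to 0.01. Clec4e, a receptor for damage and microbial glycolipids, was at 4.48. Cd14, the endotoxin co-receptor, was at 3.37 ± 0.16 and the interleukin-1 antagonist Il1rn at 3.37 ± 0.65 (SD over 2 probes each). The tumour necrosis factor receptor Tnfrsf1b was at 2.61. Tlr4, the endotoxin receptor and the 1 lower gene, named after its value was seen, was at -2.37. In CNT-1 none was past 1 unit in either direction, but 2 were higher after quantile normalization and 2 with negative-control centring.

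Of 9 regulators of chemokine mRNA stability none was higher and 1 was lower in CNT-2, against 10.1% and 6.56% of all named genes. Their median was -0.17. The lower gene was Zfp36, whose product speeds the decay of short-lived cytokine and chemokine mRNAs, at -2.04 in CNT-2 and 0.05 in CNT-1. After quantile normalization no gene of this list was past 1 unit in CNT-2. With 75th percentile centring 3 were lower and none higher, with a median of -0.61, where 14.4% of all named genes were lower.

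A list for trimming and shedding of chemokines held 15 genes, enzymes apart from the inhibitor Timp1. In CNT-2 7 of these 15 were at least 1 unit higher and none lower, beside the same 10.1% and 6.56% of all named genes. The list median was 0.69. After quantile normalization 3 were higher, and with 75th percentile centring 6 were higher and 1 lower, with a median of 0.26. Mmp12, the macrophage elastase, was at 3.85 and the gelatinase Mmp9, which cleaves CXC ligands, at 2.00. The cathepsins Ctsk and Ctsl were at 2.10 and 1.95 ± 0.005 (SD over 2 probes). In CNT-1 none was higher and 1 lower, the neutrophil elastase gene Elane at -1.20, named after its value was seen.

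Of 25 signalling genes downstream of chemokine receptors 1 was higher and 2 lower in CNT-2, against 10.1% and 6.56% of all named genes. Their median was 0.20, which 75th percentile centring turned to -0.24. Rgs1, which shortens signals from chemokine receptors, was at 6.07 in CNT-2 and 1.29 in CNT-1. Cxcl2 was at 6.27 and 0.61 in these comparisons, and Cxcl1 at 4.48 and 1.05. Rgs18, of the same family as Rgs1, was at -1.63 in CNT-2, and Arrb2, an arrestin that desensitises chemokine receptors, at -1.31. After quantile normalization 1 gene of this list was higher and 0 were lower in CNT-2. With 75th percentile centring 1 was higher and 4 were lower, where 14.4% of all named genes were lower.

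Other mediators of neutrophil recruitment went both ways. In CNT-2 3 of 18 were at least 1 unit higher and 6 lower, against 10.1% and 6.56% of all named genes. The list median was -0.05. The 3 higher became 2 with median, 75th percentile or spike-in centring and 4 with negative-control centring. After quantile normalization 2 were higher and 4 lower. As reported, the cytokine Osm was at 4.85, the siderophore-binding Lcn2 at 3.68, and Mif, named after its value was seen, at 1.09. The leukotriene pathway genes Alox5ap and Alox5 were at -2.75 and -2.30. In CNT-1 1 was higher, Osm at 1.77, and 3 were lower, against 1.16% and 2.15% of all named genes, with a median of -0.46. These 3, named after their values were seen, were Ptafr at -2.50, Alox5ap at -1.67 and Csf3, the granulocyte growth factor, at -1.19. Csf3 had -0.35 in CNT-1 and 0.84 in the control, whereas the control values of Ptafr and Alox5ap were -0.007 and -0.012.

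**Figure D4:**
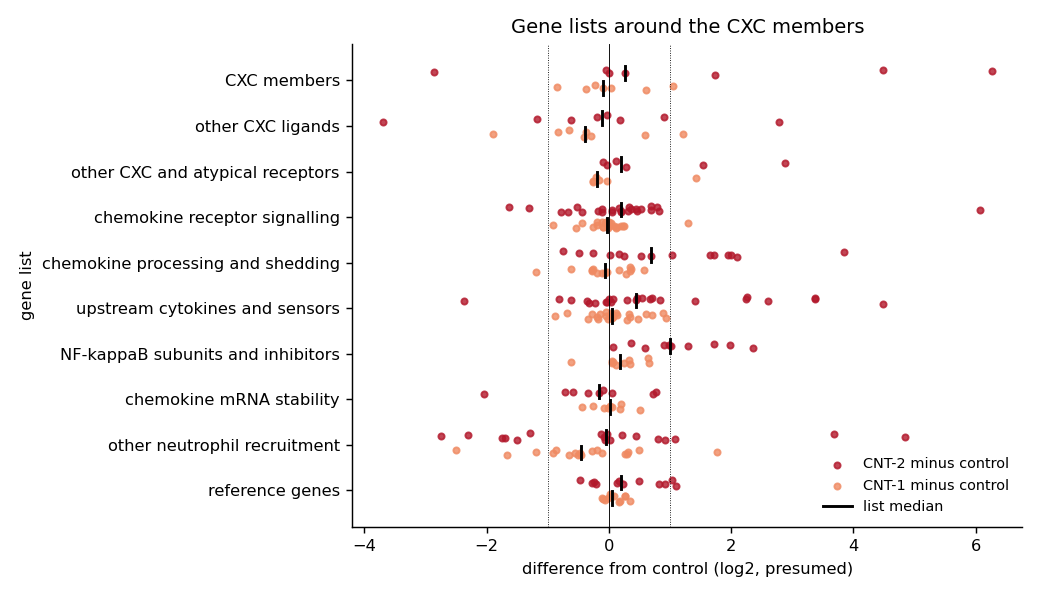
Difference from the control (horizontal axis, presumed log2) of each gene of the members, 8 further lists and the reference genes (vertical axis) in CNT-2 and CNT-1, with black bars at the list medians and dotted lines at 1 unit. The NF-kappaB list has a median of 1.00 in CNT-2 and 0.18 in CNT-1, and the members one of 0.26 and -0.10.

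Markers of other cells were set beside these values. For each count in CNT-2 here, the shares of all named genes were 10.1% higher and 6.56% lower. Of 14 measured neutrophil markers none was at least 1 unit higher in CNT-2 and 1 was lower, Fcnb at -2.38, with a median of 0.13 and a range up to 0.93. Cxcr2, at -2.86 and also listed as a neutrophil marker, was counted with the members only. With each column centred on the negative-control probe 2 of the 14 were higher, Cd177 and S100a8, and after quantile normalization 1 was. Before that Cd177 was at 0.93 and S100a8 at 0.92 ± 0.92 (SD over 3 probes, 2 near the negative control in the control column). All probes of 4 of these 14 markers were near the negative control in the control column, against 1 of 19 alveolar macrophage markers and 13.9% of all named genes. Among alveolar macrophage markers 4 of 19 were higher and 4 lower in CNT-2, with the fatty acid binding protein Fabp4 at 3.96, Bhlhe41 at 2.31, Cidec at -2.43 and the mannose receptor Mrc1 at -2.24 ± 0.13 (SD over 2 probes). The others of these 8 were Fabp5, Cd9, Csf2rb and Csf1r, at 2.14, 1.53, -1.51 and -1.25, named after their values were seen. Markers of T, NK and B cells had 0 of 11 higher and 3 lower, namely Nkg7 at -1.67, Cd79a at -1.37 and Cd8a at -1.14. Epithelial markers had 2 of 12 higher, Krt18 at 1.34 ± 0.52 (SD over 2 probes) and Aqp5 at 1.12, but none with 75th percentile centring or after quantile normalization and 1 with spike-in centring. Fibroblast and endothelial markers had 1 of 12 higher, Dcn at 2.56, and 1 lower, Vwf at -1.73 ± 1.66 (SD over 2 probes). Of 12 reference genes 2 were higher in CNT-2, Pgk1 at 1.10 and Tfrc at 1.03 ± 0.15 (SD over 3 probes), but none with 75th percentile or spike-in centring or after quantile normalization, 1 with median centring and 3 with negative-control centring. The part of any of these in the chemokine values was not tested.

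Genes with the most similar pair of differences were found by Euclidean distance over CNT-2 minus control and CNT-1 minus control, that is, from 3 columns. For Cxcl1 these were Ccl4, a CC chemokine of macrophages, at 4.46 in CNT-2 and 1.04 in CNT-1, then the transglutaminase Tgm2 and Clec4e, at distances of 0.02, 0.09 and 0.12. For Cxcl2 they were Ptprf, Lat2 and Rgcc, at distances of 0.18, 0.22 and 0.36. For Cxcl3 they were Bfsp1, Anxa3 and Tectb, at distances of 0.007, 0.03 and 0.04, around a mean on which its probes disagreed. For Cxcr2 they were Ttpa, Mmp28 and P2ry10, at distances of 0.34, 0.36 and 0.37. With 2 coordinates per gene such nearness is a description of these columns.

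**Figure D5:**
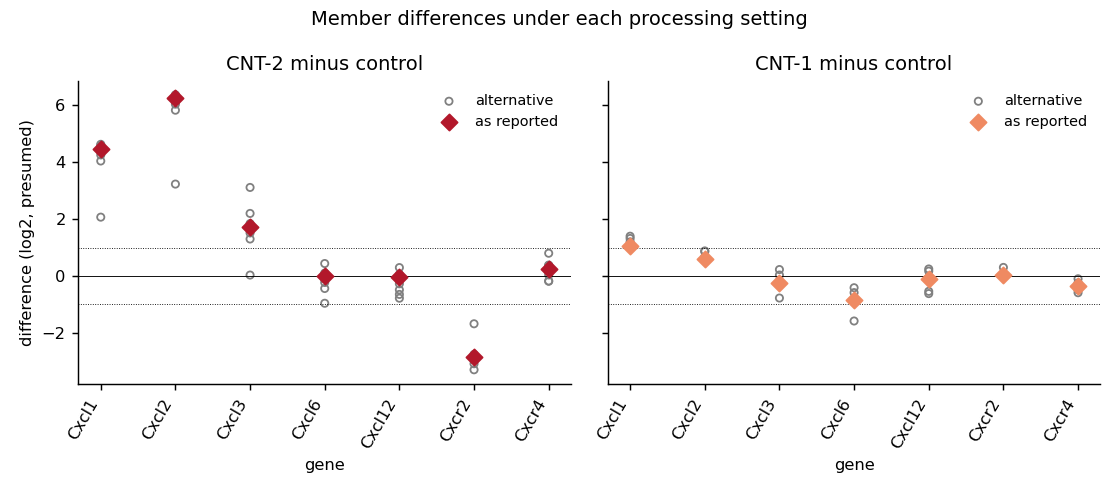
Difference from the control (vertical axis, presumed log2) of each member (horizontal axis) in CNT-2 (left) and CNT-1 (right), as reported (diamonds) and under each alternative setting (open circles), with dotted lines at 1 unit. The setting without subtracting the control shows the column value itself and gave the 4.63 of Cxcl1 below. In CNT-2 the values of Cxcl2 range between 3.23 and 6.37 and those of Cxcl1 between 2.07 and 4.63. Those of Cxcr2 range between -3.30 and -1.68, and all of these are past 1 unit.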

How the data were processed

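RNA was labelled with 1 dye, Cy3, for Agilent arrays, per the labels' protocols. The submitters' processing notes name Agilent Feature Extraction 10.7.3.1. The deposited values were differences on a log scale, presumed log2, for 41103 probes; neither header nor labels name the normalization, the baseline or any averaging. An n of 4 stands in the design text with no unit, and each column was treated as 1 value. Names came from the platform annotation, updated through RefSeq (17424 by accession, 3104 by current symbol, 396 by older symbol, 8 unmatched, 20171 unnamed). A gene's value was the mean over its probes of the column differences. Its SD is the spread of these differences over its probes and not a spread between cultures. Genes were counted at 1 log2 unit. The calculation, in pandas 2.3.3, was tested on simulated data. The planned filter on low values was not run, because the values hold no level. The members and lists were chosen with earlier results of these data known. Members were all named; of other lists, all CXC ligands and receptors and up to 4 genes with the largest CNT-2 difference past 1 unit. Of the pathway and marker lists, 14 were used. The number of arrays limits the precision.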

Additional observations from a re-analysis of the deposited data

How the results depend on the processing

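With 1 column per group, these alternatives say nothing of the spread between cultures. Deposited values of all probes spanned -5.715 to 8.817 in CNT-2 and -0.996 to 2.951 in the control. Quantile normalization gives all columns 1 distribution, so it narrows CNT-2 and widens the control by construction. Its smaller CNT-2 differences are therefore no separate check of the calls. The median of all named genes in CNT-2 minus control was 0.04 as reported, -0.40 with 75th percentile, -0.18 with spike-in and 0.14 with negative-control centring, the last chosen after seeing the data. Genes past 1 unit numbered 1616 higher and 1045 lower in CNT-2 as reported, 838 and 2297 with 75th percentile centring. In CNT-1 they numbered 184 and 342, against 394 and 180 with negative-control centring, and in CNT-2 minus CNT-1 1484 and 741, against 768 and 1563 with 75th percentile centring. The median of the members in CNT-2 minus control was 0.26, and was -0.18 with 75th percentile centring, -0.19 after quantile normalization and 0.035 with spike-in centring. The 3 higher members became 2 after quantile normalization, where Cxcl3 was at 0.03, and 2 without probes near the negative control in the control column, where Cxcl1 had no probe left. In CNT-1 minus control the 1 higher member became 0 with 75th percentile centring, 0 without probes near the negative control in the control column and 0 at a threshold of 1.5 log2 units, and the 0 lower members became 1 after quantile normalization. The median there was -0.10, and was -0.54 after quantile normalization, -0.35 without probes near the negative control in the control column, 0.23 without subtracting the control and 0.17 with negative-control centring. In CNT-2 minus CNT-1 the 3 higher members became 1 after quantile normalization. The median there was 0.85, and was 0.47 with 75th percentile centring, 0.62 after quantile normalization, 0.58 with spike-in centring and 1.07 without probes near the negative control in the control column. No member value past 1 unit changed sign under the alternatives run, of which the median over probes cannot differ from the mean with 1 or 2 probes per member. No paired analysis was possible because each group had 1 column.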
